A study of Homo sapiens with 12 samples.

Results

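The hairpin called shRNA1 left the least RBFOX2 RNA of the 3 RBFOX2 hairpins in 293T cells, and the data described here are the 3 arrays of cells carrying it, set against the 3 arrays of cells carrying a non-target control hairpin. These are 6 of the 12 arrays of the series, chosen by their labels alone, and the remaining arrays are 3 each of cells with shRNA2 and shRNA3. 293T is a line from human embryonic kidney in which the SV40 large T antigen is expressed. Every group, the control included, was infected with a lentivirus that carries a hairpin and was kept under puromycin at 1 ug/mL for 10 days, starting 48 hours after infection, so the control shares the virus and the drug. Whether replicates were separate infections is not given by the labels, so the spread behind each p-value is that between these arrays and may be technical, and the number of arrays limits the precision. No rescue with a resistant RBFOX2 is among the samples, so effects of RBFOX2 loss and other effects of the shRNA1 sequence cannot be told apart within this comparison. Every change against control rests on the same 3 control arrays, so a trait of those arrays cannot be told apart either.

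RBFOX2 is an RNA-binding protein that recognises GCAUG elements, mostly in introns, and helps decide whether a nearby exon is kept in the messenger RNA. In studies of the family, sites downstream of an exon tend to favour its inclusion and sites upstream its skipping. Known targets include many genes of the cell cortex, the cytoskeleton and membrane traffic. The array suits this biology because it holds separate probe sets for exons and for exon-exon junctions. The gene value used below is the mean log2 signal of a gene's probe sets. The splicing index is the log2 signal of 1 probe set minus the mean of the others of its gene on the same array, so it measures unequal change within a gene. A junction probe set reads the joint of a pair of exons, and a fall of its index says that this joint became rarer relative to the rest of the gene.

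The median log2 signal of an array was 7.24 to 7.27. Correlations across probe sets were 0.993 to 0.995 among shRNA1 arrays, 0.993 to 0.994 among control arrays and 0.988 to 0.991 between the groups. All 9 markers of 293T cells that were looked up lay above the level cutoff of log2 6.53, with medians from 7.61 for PAX2 to 11.3 for VIM. Of 11 markers of other cell types with probe sets, PTPRC, CD3E, PECAM1, CDH5, DCN, ALB and MYH6 lay below the cutoff, while COL1A1, ACTA1, GFAP and SYP lay above it, with medians from 6.94 to 8.49. Fewer cells of a type and less RNA per cell cannot be told apart in such bulk samples.

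RBFOX2 itself fell by 1.04 on the log2 scale with shRNA1 (SE 0.03, n = 3 arrays per group; limma adjusted p = 2.09e-10). Its gene value was 8.59, 8.54 and 8.51 on the shRNA1 arrays, against 9.59, 9.58 and 9.58 on the control arrays. All shRNA1 arrays lay about a full log2 unit under all control arrays, and 48.7% of the control signal remained. The fall was not even along the gene. Of its 44 probe sets 35 were called lower and none higher, beside 0.464% called lower and 1.72% called in either direction among all single probe sets tested. The level of single probe sets ranged from 30.1% to 109% of control, with a median of 47.5% for the 26 exon probe sets and 39.4% for the 18 junctions, and 30 lay at or below 50%.

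Of its probe sets 9 were not called. Exon probe set PSR22012293.hg.1 read 10.73 with shRNA1 and 10.96 in control (84.8%; adjusted p = 0.111), and PSR22012294.hg.1 read 9.24 with shRNA1 and 9.46 in control (85.7%; adjusted p = 0.151). PSR22012292.hg.1 read 6.97 with shRNA1 and 6.85 in control (109%). Junction JUC22005089.hg.1 read 9.98 with shRNA1 and 9.97 in control, and JUC22005091.hg.1 read 7.81 with shRNA1 and 7.95 in control, while JUC22005090.hg.1, numbered between them, was called lower at 35.7% of control. Relative to the rest of the gene, 8 RBFOX2 probe sets changed and 7 of them were higher, that is, they fell less than the others or not at all. Calls for 3 of the 8 (PSR22012262.hg.1, JUC22005066.hg.1 and JUC22005089.hg.1) were lost when single arrays were left out, control replicates 1, 2 or 3 or shRNA1 replicates 1 or 2 in each case, and shRNA1 replicate 3 too for the last. The paralogs were not called at the gene level. RBFOX1, mainly a brain and muscle gene, was at 7.77, 7.78 and 7.76 with shRNA1, against 7.89, 7.89 and 7.81 in control (log2 -0.09, SE 0.04; adjusted p = 0.214). The neuronal RBFOX3 differed by 0.01 (SE 0.04; adjusted p = 0.939).

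**Figure D1:**
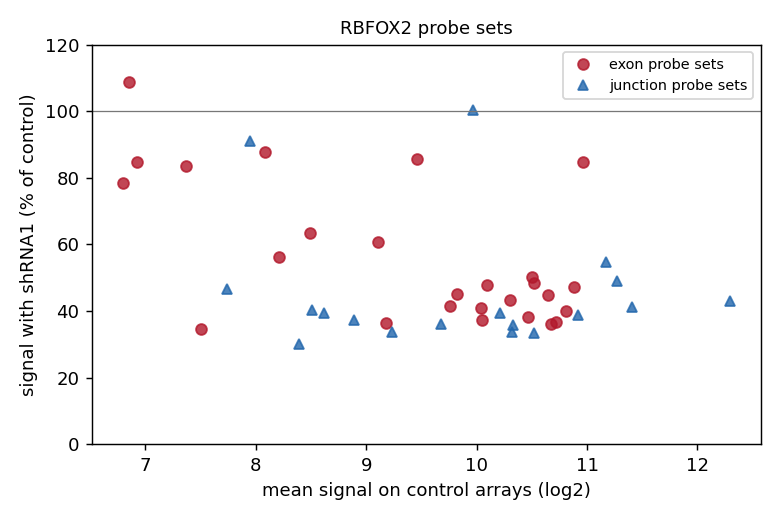
Signal of each RBFOX2 probe set with shRNA1 as a percentage of its control signal (y axis), against its mean log2 signal on the control arrays (x axis), for 26 exon probe sets (circles) and 18 junctions (triangles). Of the 44 points 30 lie at or below 50%, while a group of probe sets, some of them bright, stays between 78.6% and 109%.

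At the gene level 1675 of 16648 genes changed with shRNA1 (10.1%), 998 higher (5.99%) and 677 lower (4.07%). Most changes were small. The median was 0.19 over the genes that rose and -0.17 over those that fell, beside -0.01 over all genes. Changes of at least 1.2-fold were seen for 211 rises and 77 falls, of at least 1.5-fold for 14 and 4, and of at least 2-fold for RBFOX2 and KRTAP19-1, the 2 genes past it. The groups did not overlap for 1673 of the 1675 called genes and for 5850 of all genes tested (35.1%). The count depended on single arrays: it was 680 and 493 without shRNA1 replicates 1 and 2, and 650, 1113 and 735 without control replicates 1, 2 and 3. Of the 1675 calls 436 held whichever of the 6 arrays was left out. Calls were spread over the genome, from 6.92% to 12.8% of the genes of a chromosome over the autosomes and X, with medians there from -0.03 to 0.01.

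The 12 largest rises were of genes of several kinds. SYT11, a synaptotagmin that regulates membrane traffic, was at 7.86, 7.62 and 7.74 with shRNA1, against 6.78, 6.81 and 6.93 in control. All 4 of its probe sets were above every control array, and it rose 1.87-fold (log2 0.90, SE 0.06; adjusted p = 3.22e-06). CLTRN (TMEM27 on the array), the kidney protein collectrin that assists amino acid transporters, was at 7.41, 7.55 and 7.48 with shRNA1, against 6.59, 6.49 and 6.71 in control (1.84-fold; log2 SE 0.09; adjusted p = 8.40e-05). DDR2, a receptor tyrosine kinase for collagen, was at 8.46, 8.40 and 8.33 with shRNA1, against 7.60, 7.59 and 7.62 in control. Of its 36 probe sets 35 lay above all 3 control arrays, and the rise was 1.73-fold (log2 SE 0.06; adjusted p = 3.30e-06). NIBAN1 (FAM129A on the array), induced under stress, was at 7.67, 7.57 and 7.62 with shRNA1, against 6.83, 6.92 and 6.92 in control (1.66-fold; log2 SE 0.07; adjusted p = 4.48e-05). These groups were well apart on every array.

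STC1, a secreted glycoprotein, varied more in control. It was at 7.72, 7.83 and 7.56 with shRNA1, against 6.44, 7.16 and 6.88 in control (log2 0.88, SE 0.16; adjusted p = 0.00436), so the control arrays were farther apart than the shRNA1 arrays. The same control replicates were low and high for DDIT4, an inhibitor of mTORC1, at 10.45, 10.54 and 10.52 with shRNA1, against 9.48, 10.05 and 9.76 in control. BHLHE40, a transcriptional repressor, showed it too, at 9.60, 9.75 and 9.62 with shRNA1, against 8.71, 9.14 and 8.97 in control. The groups did not overlap for any of them, as for 35.1% of all genes tested. These 3 rises were not particular to shRNA1. Against the same control arrays, shRNA2 and shRNA3 gave 0.86 and 0.88 for STC1, 0.68 and 0.83 for DDIT4 and 0.69 and 0.79 for BHLHE40. The other large rises were those of the glucose transporter SLC2A3 (log2 0.77), the zinc finger gene ZC3H6 (0.74), the stress factor DDIT3 (0.73), the heparan sulfate sulfatase SULF1 (0.66) and FAXDC2, a fatty acid hydroxylase homolog listed as C5orf4 (0.64).

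Among the 12 largest falls, KRTAP19-1, a keratin-associated protein gene, was at 8.49, 8.50 and 8.54 with shRNA1, against 9.92, 9.66 and 9.62 in control. All 5 of its probe sets lay below every control array and 42.9% of the control signal remained (log2 -1.22, SE 0.08; adjusted p = 3.03e-06). CEMIP2 (TMEM2 on the array), a cell surface protein that degrades hyaluronan, was at 7.35, 7.37 and 7.37 with shRNA1, against 8.17, 8.12 and 8.17 in control. Of its 48 probe sets 45 lay below all control arrays (57.9% of control; log2 SE 0.04; adjusted p = 1.86e-08). FKBP7, which isomerises prolines in the endoplasmic reticulum, was at 8.39, 8.48 and 8.48 with shRNA1, against 9.21, 8.98 and 9.01 in control (65.1% of control; adjusted p = 0.000107). GGCX, the vitamin K-dependent gamma-glutamyl carboxylase, was at 8.14, 8.10 and 8.15 with shRNA1, against 8.62, 8.59 and 8.66 in control (71.2% of control; adjusted p = 1.02e-05). ID3, which blocks DNA binding by helix-loop-helix factors, was at 9.16, 9.27 and 9.41 with shRNA1, against 9.98, 9.64 and 9.77 in control (69.8% of control; adjusted p = 0.00904). The remaining falls of the 12 were of the sodium-proton exchanger SLC9A2 (log2 -0.48), the opsin homolog RRH (-0.47), RWDD4 (-0.47), HYCC1 (-0.46), the galanin receptor GALR2 (-0.45) and RPL26L1, a ribosomal protein homolog (-0.43). All 24 calls held in each of the 6 leave-one-out fits.

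**Figure D2:**
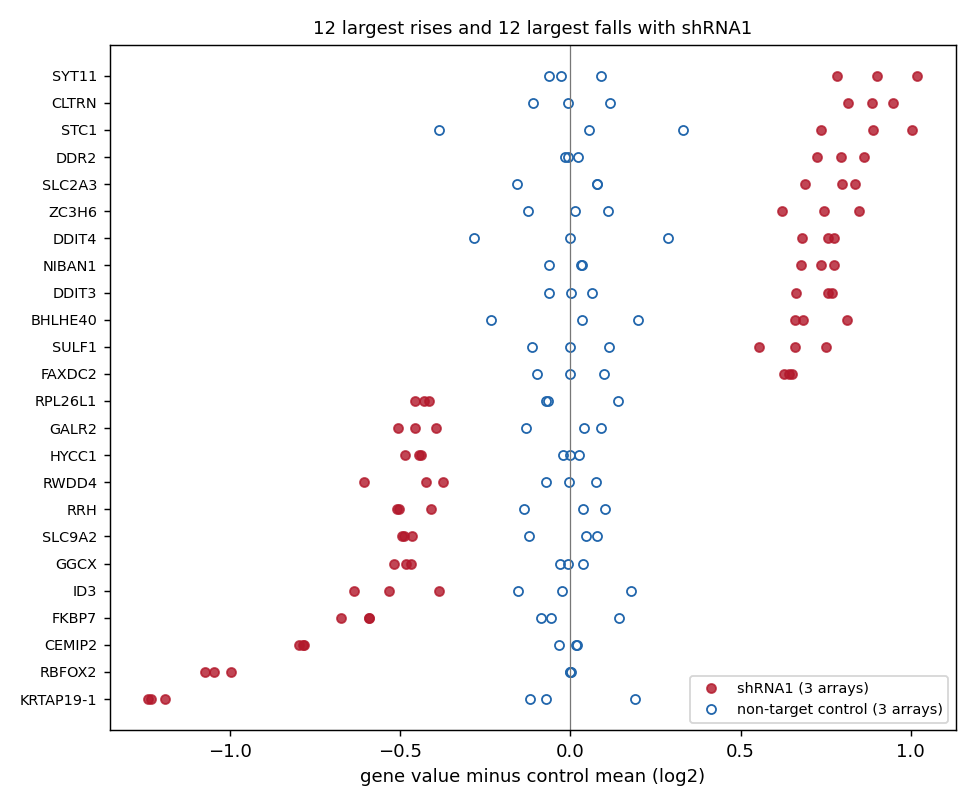
Gene values of the 12 largest rises and 12 largest falls, each array shown as its log2 difference from the mean of the control arrays (x axis), with filled circles for shRNA1 and open circles for control. The 2 groups do not overlap for any gene shown, as for 35.1% of all genes tested. The control arrays of STC1, DDIT4 and BHLHE40 spread more widely than those of DDR2, CEMIP2 or RBFOX2.

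The integrated stress response slows translation while the factor ATF4 turns on genes for amino acid supply, and 23 of its 37 measured genes rose and none fell (median 0.20, against -0.01 over all genes), beside 5.99% of all genes called higher and 4.07% called lower. The count of rises was 16 to 22 when single arrays were left out. All gene lists used here were drawn up with earlier results of these data known, so their shares are descriptions. Among regulators, the factor DDIT3 was at 9.10, 9.20 and 9.21 with shRNA1, against 8.38, 8.50 and 8.44 in control (log2 SE 0.07; adjusted p = 0.000125). ATF3, another stress factor, was at 8.80, 8.95 and 8.78 with shRNA1, against 8.22, 8.35 and 8.34 in control (log2 0.54, SE 0.08; adjusted p = 0.00147). The gene of ATF4 itself differed by 0.07 (adjusted p = 0.244). Among enzymes, the folate enzyme ALDH1L2 was at 9.47, 9.54 and 9.41 with shRNA1, against 8.74, 8.99 and 8.86 in control (log2 0.61). CTH, which makes cysteine, was at 9.57, 9.80 and 9.74 with shRNA1, against 9.11, 9.17 and 9.11 in control (log2 0.57). ASNS, which makes asparagine, was at 9.93, 9.91 and 9.92 with shRNA1, against 9.38, 9.49 and 9.41 in control (log2 0.49; adjusted p = 0.000551). No shRNA1 array overlapped a control array for these 5 genes, which held for 35.1% of all genes tested. The cystine transporter SLC7A11 (0.39) and CHAC1, which degrades glutathione (0.35), also rose. Of 15 measured cytosolic tRNA synthetases, many of them ATF4 targets, 5 rose and none fell, and LARS1 (0.26), AARS1 (0.23) and IARS1 (0.17) kept their calls whichever array was left out while the count was then 3.

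The programme of hypoxia and glycolysis raises glucose uptake and lactate production when oxygen is short. Of its 38 measured genes 21 rose and none fell (median 0.20), again beside 5.99% of all genes called higher. The count was 12 without shRNA1 replicate 2 and 12 without control replicate 1. This list too was drawn up with earlier results known. PDK1, which keeps pyruvate out of mitochondria, was at 9.69, 9.74 and 9.65 with shRNA1, against 8.96, 9.33 and 9.12 in control (log2 0.56, SE 0.08; adjusted p = 0.0015). P4HA1, a subunit of collagen prolyl hydroxylase, was at 9.70, 9.77 and 9.67 with shRNA1, against 9.15, 9.31 and 9.18 in control (log2 0.50; adjusted p = 0.00136). The angiogenic factor VEGFA was at 9.27, 9.27 and 9.26 with shRNA1, against 8.76, 8.95 and 8.91 in control (log2 0.39; adjusted p = 0.000735). Control replicate 1 was the lowest control array for these 3 genes, as it was for STC1, DDIT4 and BHLHE40, and its part in the result was not tested beyond the fit without it. STC1, SLC2A3 and BHLHE40 are members of this list.

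RefSeq promoter windows (GRCh38.p14, 250 bases before to 50 after a single annotated start per gene) were searched for a core motif of each programme. Other annotated starts of a gene were not searched. Both lists were written from textbook knowledge of these programmes, which can include genes known through such motifs. The lists are therefore not independent of the motifs, and their shares are descriptions. A composite CEBP-ATF element, TGATGNAA on either strand, was in 1003 of 27305 windows (3.67%), in 6 of 29 measured stress response genes with a window (20.7%) and in 3 of the 16 of them that were called. These are shown with the matching bases in capitals, ATF3 at chr1:212565157-212565456 (plus strand), ASNS at chr7:97872359-97872658 (minus strand) and CHAC1 at chr15:40953221-40953520 (plus strand), each read 5′ to 3′ along its gene.
ATF3: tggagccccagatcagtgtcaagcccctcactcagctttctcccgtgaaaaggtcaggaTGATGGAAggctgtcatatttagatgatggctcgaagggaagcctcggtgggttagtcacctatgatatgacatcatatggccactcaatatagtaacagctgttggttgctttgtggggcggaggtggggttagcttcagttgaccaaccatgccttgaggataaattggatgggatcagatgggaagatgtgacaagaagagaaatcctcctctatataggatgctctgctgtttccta
ASNS: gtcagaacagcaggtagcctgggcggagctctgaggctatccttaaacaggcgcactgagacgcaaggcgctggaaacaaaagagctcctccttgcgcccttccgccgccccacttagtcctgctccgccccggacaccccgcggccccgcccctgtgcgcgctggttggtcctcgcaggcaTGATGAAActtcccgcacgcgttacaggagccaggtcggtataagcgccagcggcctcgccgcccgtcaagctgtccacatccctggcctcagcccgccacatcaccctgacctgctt
CHAC1: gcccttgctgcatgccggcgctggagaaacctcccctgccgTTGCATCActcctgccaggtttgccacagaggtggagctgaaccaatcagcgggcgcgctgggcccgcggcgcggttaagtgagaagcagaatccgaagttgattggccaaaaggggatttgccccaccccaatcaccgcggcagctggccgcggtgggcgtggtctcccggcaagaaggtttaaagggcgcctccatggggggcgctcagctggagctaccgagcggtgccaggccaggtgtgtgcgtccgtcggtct
The matches begin 191, 68 and 209 bases before the starts of ATF3, ASNS and CHAC1. DDIT3 and CTH had none in the window.

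The core of the hypoxia response element, ACGTG on either strand, was in 5900 of 27305 windows (21.6%), in 16 of 33 measured hypoxia and glycolysis genes with a window (48.5%) and in 10 of 16 called ones (62.5%). It is also part of the E-box CACGTG, a site of BHLHE40-type factors, so a match can belong to either. BHLHE40 at chr3:4979187-4979486 (plus strand) and P4HA1 at chr10:73096817-73097116 (minus strand) are shown because they held a match and are among the list's largest rises.
BHLHE40: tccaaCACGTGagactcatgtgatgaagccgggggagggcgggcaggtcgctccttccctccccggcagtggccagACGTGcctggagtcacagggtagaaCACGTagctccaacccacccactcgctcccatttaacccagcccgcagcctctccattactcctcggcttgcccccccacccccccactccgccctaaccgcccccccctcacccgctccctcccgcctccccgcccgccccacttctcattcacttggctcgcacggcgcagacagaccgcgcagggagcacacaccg
P4HA1: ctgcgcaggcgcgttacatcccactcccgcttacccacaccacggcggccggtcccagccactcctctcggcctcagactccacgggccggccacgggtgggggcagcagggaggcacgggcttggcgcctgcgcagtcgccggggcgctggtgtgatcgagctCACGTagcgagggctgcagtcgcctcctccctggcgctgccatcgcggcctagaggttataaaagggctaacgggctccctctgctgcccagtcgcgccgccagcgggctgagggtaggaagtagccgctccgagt
BHLHE40 held 4 matches, beginning 245, 244, 174 and 149 bases before its start, the first 2 of them on opposite strands of 1 CACGTG. P4HA1 held 1 match, 86 bases before its start. PDK1 and PFKFB4 rose with none in the window. A match is only a description of these letters.

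Counts of the remaining lists stand beside 10.1% of all genes called, 5.99% higher and 4.07% lower. Of 24 genes of endoplasmic reticulum chaperones and the unfolded protein response 8 rose and 3 fell, with HERPUD1, of protein degradation at that membrane, at 10.06, 10.13 and 10.11 with shRNA1, against 9.73, 9.81 and 9.77 in control (log2 0.33), and the prolyl isomerases FKBP7 and FKBP14 lower. All 3 histone genes called of 5 measured were lower: H2BC5 by 0.40, H2BC12 by 0.30 and H2AX by 0.21 on the log2 scale. H2B genes and KRTAP19-1 have near-identical relatives, and hybridisation of those was not tested. H2BC5 was at 8.42, 8.44 and 8.46 with shRNA1, against 8.82, 8.82 and 8.88 in control. Of 24 genes of the BMP and TGF-beta response 5 fell and 1 rose, the falls numbering 3 without control replicate 1 or 3, and ID3 and the decoy receptor BAMBI (-0.23) kept their calls in each leave-one-out fit. Of 45 matrix genes and receptors 6 rose, DDR2, SULF1 and the collagen cross-linking enzyme LOX (0.37) among them, and 2 fell.

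Neuronal genes held the rises of SYT11 and TENM1, a teneurin, at 8.59, 8.48 and 8.37 with shRNA1, against 7.87, 7.88 and 7.97 in control, among 27 measured, of which 2 rose and 1, SV2A, fell (-0.14; call lost without any 1 of the 6 arrays). Of 22 immediate early genes 5 rose, FOS by 0.40 (adjusted p = 0.000289) and ATF3 most, and 1 fell. The 5 rises were 2 without shRNA1 replicate 2 and 3 without control replicate 1 or 3. The interferon response held 3 rises among 21, STAT2 (0.25) being the 1 that kept its call in all leave-one-out fits. Of 11 genes of RNA interference AGO4 rose (0.35; adjusted p = 0.00398). Of 33 oxidative phosphorylation genes 2 fell, NDUFA9 and ATP5F1C. The falls of this list numbered 0 without shRNA1 replicate 1 or 2 or control replicate 1, and 1 without shRNA1 replicate 3 or control replicate 3. None of 13 nonsense-mediated decay genes and none of 21 epithelial or mesenchymal identity genes passed the limma test, while 2 and 4 had an unadjusted p below 0.05, as had 4276 of all 16648 genes. With 10.1% of all genes called, these counts and those of the other lists in this paragraph are read against that share. SMG8 had the largest difference of the decay genes at -0.17 (adjusted p = 0.133), and SNAI1 of the identity genes at -0.15 (adjusted p = 0.0504). DNA replication (2 higher, 2 lower of 35), mitosis (1 and 2 of 30), p53 targets (2 and 4 of 21), cholesterol synthesis (0 and 4 of 26) and ribosomal proteins (1 and 0 of 21) held calls of which those of MCM7, a subunit of the replicative helicase (0.27), and POLE4, of DNA polymerase epsilon (-0.36), held in each leave-one-out fit.

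**Figure D3:**
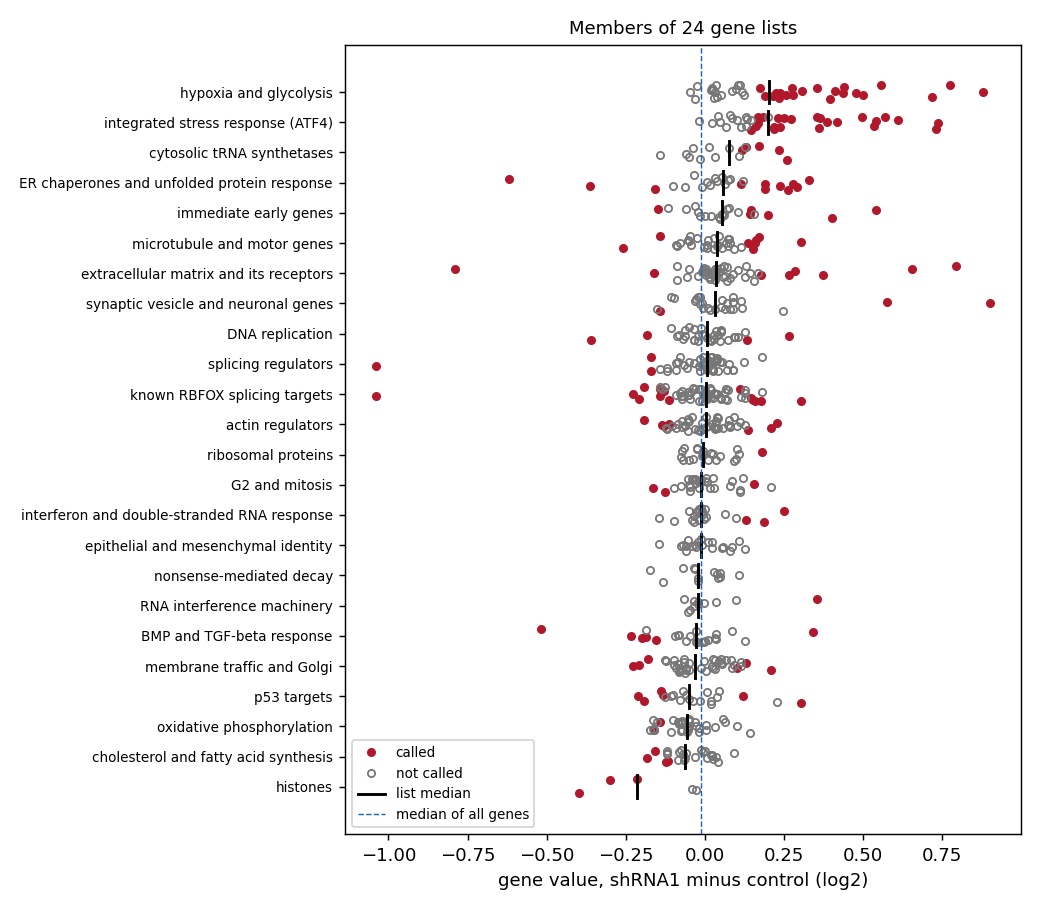
Change of each measured member of 24 gene lists (x axis, gene value of shRNA1 minus control, log2), filled where called and open where not, with the list median as a black bar and the median of all genes as a dashed line. The lists are ordered by their median, and the stress response and hypoxia lists lie to the right with no called member on the left.

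Among splicing regulators, 3 of 49 genes were lower and none higher, beside 4.07% and 5.99% of all genes: RBFOX2, HNRNPF (-0.17; adjusted p = 0.00509) and MBNL3 (-0.17; adjusted p = 0.0104), a muscleblind gene whose call was lost in 1 leave-one-out fit, without control replicate 1. Within-gene changes were found in 5 of the 49, beside 2.24% of all genes. Of 1854 probe sets tested in the 49 genes 13 were called, 8 of them in RBFOX2, beside 0.129% over all genes. PTBP2, a neuronal splicing repressor, had a junction with a higher index (0.77; adjusted p = 0.0446, lost when any 1 of the 6 arrays was left out), SRSF10 a pair of higher probe sets up to 1.02, and HNRNPH1 (-0.65; lost likewise) and RBFOX1 (-0.89; adjusted p = 8.86e-05) each 1 lower probe set. RBFOX2 is the other gene. Without the called probe set the RBFOX1 gene value differed by -0.04 (limma adjusted p = 0.589). Hybridisation of RBFOX2 RNA to that RBFOX1 probe set was not tested. These PTBP2, SRSF10, HNRNPH1 and RBFOX1 values were chosen after they were seen.

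Use of exons and junctions was read from the splicing index. An index belongs to a single probe set and a gene value is an average, so their sizes are not compared. Of 417377 probe sets tested in 15891 genes, 540 changed by at least 1.5-fold against the rest of their gene (0.129%), 262 higher (0.0628%) and 278 lower (0.0666%). They lay in 356 genes (2.24%). Of the 540, 220 lay in genes called at the gene level, 63 of them lower in genes called higher. Whether such probe sets merely did not follow the level of their gene was not tested. Junctions made up 374 of the 540, or 0.228% of the junctions tested, and exons 166, or 0.0656% of the exons tested. Changes of at least 2-fold were seen for 58 higher and 102 lower probe sets, and of at least 4-fold for 5 higher probe sets in 5 genes and 32 lower ones in 17 genes. In all 540 the groups did not overlap, which held for 21% of all probe sets. The count was 289 and 308 without shRNA1 replicates 2 and 3, and 338 and 324 without control replicates 1 and 3. The genes were 175 and 190 without those shRNA1 arrays and 212 and 208 without those control arrays. Calls of 227 probe sets in 124 genes held whichever array was left out, the 15 highest and 15 lowest among them.

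The deepest fall was in ATP5F1C, listed as ATP5C1, a gene for the gamma subunit of ATP synthase whose alternative exon is a textbook RBFOX target. Its junction JUC10000400.hg.1 had an index of -4.63, -5.02 and -5.75 with shRNA1, against -1.65, -1.50 and -1.65 in control (11.6-fold lower; log2 -3.54, SE 0.22; adjusted p = 1.49e-05). The junction JUC06013065.hg.1 of EPB41L2, a protein of the 4.1 family that ties the membrane to spectrin and actin, was at -3.53, -3.08 and -3.14 with shRNA1, against 0.15, 0.39 and 0.17 in control (11.2-fold lower; adjusted p = 6.77e-08). That of CLSTN1, a calsyntenin cargo adaptor (JUC01018045.hg.1), was at -3.20, -2.54 and -2.40 with shRNA1, against 0.83, 0.81 and 0.59 in control (11-fold lower; adjusted p = 3.75e-06). In all 3 the shRNA1 arrays lay far below the control arrays. The signals with shRNA1, 5.95, 6.59 and 6.42, lay near or below the level cutoff of 6.53.

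Fibronectin, a glycoprotein of the extracellular matrix, showed opposite changes of an exon and a joint relative to the rest of the gene. FN1 exon probe set PSR02044167.hg.1 had an index of -3.60, -3.79 and -3.49 with shRNA1, against -0.84, -0.58 and -0.75 in control (7.49-fold lower; log2 SE 0.12; adjusted p = 7.51e-07), while the FN1 junction JUC02023148.hg.1 was at 0.53, 0.59 and 0.57 with shRNA1, against -0.52, -0.66 and -0.59 in control (2.23-fold higher). The FN1 gene value was not called (log2 0.13; adjusted p = 0.251). PICALM, which helps assemble clathrin coats, had a junction at -3.36, -3.49 and -3.81 with shRNA1, against -0.84, -0.73 and -0.44 in control (7.37-fold lower). NDEL1, a dynein regulator, had JUC17001153.hg.1 at -1.51, -1.71 and -1.67 with shRNA1, against 0.60, 0.61 and 0.66 in control (4.76-fold lower; adjusted p = 6.77e-08). ENAH, which promotes actin filament growth, had 3 probe sets lower, JUC01031071.hg.1 at -1.54, -1.67 and -1.83 with shRNA1, against 0.61, 0.80 and 0.74 in control (5.26-fold lower). For the junctions of PICALM, NDEL1 and ENAH the nearest shRNA1 and control arrays were more than 2 log2 units apart.

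Other falls of the 15 lowest were in HYCC1 (log2 -3.45), the amyloid precursor-binding gene APBB2 (-2.82), the motor scaffold SPAG9 (-2.56), the cadherin FAT3 (-2.51), the Golgi protein GOLIM4 (-2.42), the myosin phosphatase partner MPRIP (-2.31), EPB41 (-2.28) and NFYA, of the factor that binds CCAAT boxes (-2.27). Known targets beyond the 15 lowest were the cytoskeletal linker DST (-2.19), the adducin ADD3 (-2.09), the microtubule end-binding CLASP2 (-1.76) and LRRFIP2 (-1.75). Among all lower probe sets called, 34 had a signal with shRNA1 below the level cutoff, and of the higher ones 49 had a control signal below it, so that their size is bounded by the floor of the array.

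The highest rise was in EPB41, protein 4.1 of the red cell membrane, whose alternative exon is another known RBFOX target. Its junction JUC01003154.hg.1 was at 0.19, 0.42 and 0.28 with shRNA1, against -2.08, -2.14 and -2.25 in control (5.48-fold higher; log2 SE 0.08; adjusted p = 6.77e-08). SEPTIN6, a filament-forming GTPase, had a junction at -1.72, -1.69 and -1.69 with shRNA1, against -4.14, -3.86 and -4.15 in control (5.11-fold higher; adjusted p = 1.42e-06). The formin DIAPH2 had 1 at -0.79, -0.36 and -0.46 with shRNA1, against -2.16, -3.06 and -2.99 in control (4.6-fold higher; adjusted p = 0.000994). Control signals of the last pair, 6.09 and 6.24, were below the cutoff. The remaining rises of the 15 highest were in GOLIM4 (2.15), ABI1 of the WAVE actin complex (2.09, with a control signal of 5.73, also below the cutoff), FKBP14 (1.80), HYCC1 (1.73), the phosphatase PPP5C (1.67), CLASP2 (1.62), INHBE (1.57), APBB2 (1.57), the Golgi matrix gene GOLGA2 (1.55), the guidance ligand SLIT2 (1.46), the focal adhesion kinase PTK2 (1.44) and EPB41L2 (1.39). FKBP14 is the exon among them, and its gene value fell by 0.36 on the log2 scale.

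**Figure D4:**
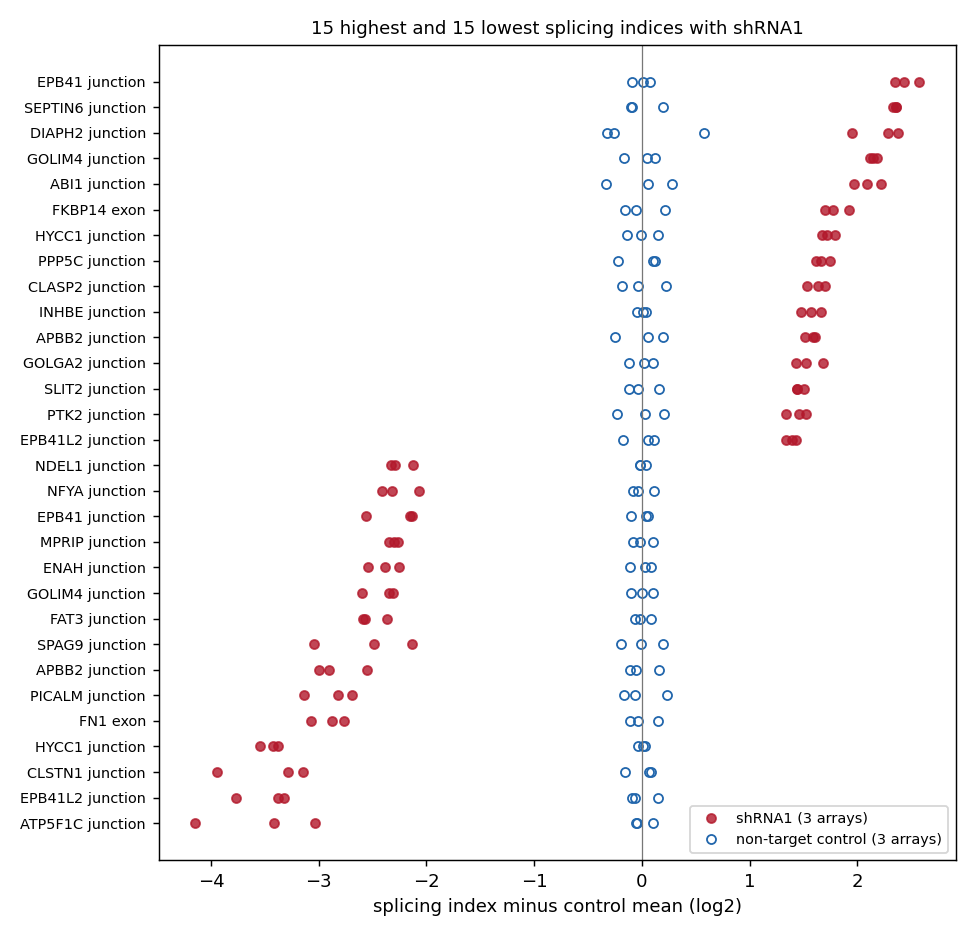
Splicing indices of the 15 highest and 15 lowest called probe sets, at most 1 per gene in each direction, each array shown as its log2 difference from the control mean (x axis), with filled circles for shRNA1 and open circles for control. The shRNA1 and control arrays are apart in every row, with the deepest falls in ATP5F1C and EPB41L2, and GOLIM4, HYCC1, EPB41, APBB2 and EPB41L2 appear on both sides.

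In 41 genes probe sets were called in both directions relative to the rest of the gene, beside 175 with only higher and 140 with only lower ones. Such calls show unequal change and need not be opposite changes of signal: RBFOX2, where no single probe set was called higher, is among the 41, as are NIBAN1 and DDIT3, where the signal of all 17 and all 8 probe sets was higher with shRNA1. In HYCC1 (FAM126A on the array), part of a lipid kinase complex at the plasma membrane, the highest and lowest differed by 5.17 log2 units: JUC07009142.hg.1 was at 0.56, 0.67 and 0.60 with shRNA1, against -1.26, -0.97 and -1.13 in control, and JUC07009127.hg.1 was at -2.57, -2.52 and -2.69 with shRNA1, against 0.82, 0.88 and 0.87 in control. The first index was higher and the second lower with shRNA1, with no overlap of the groups, as for 21% of all probe sets tested. EPB41L2 (4.88), EPB41 (4.73), GOLIM4 (4.57), CLSTN1 (4.47), APBB2 (4.38), FN1 (4.06) and DST (3.52) followed. In GOLIM4 the rising junction was at 0.83, 0.79 and 0.77 with shRNA1, against -1.23, -1.52 and -1.30 in control, and the falling one at -1.36, -1.40 and -1.65 with shRNA1, against 0.85, 1.05 and 0.95 in control.

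The most called probe sets in 1 gene were in AP1S2, a small subunit of the AP-1 clathrin adaptor, with 7 higher and 4 lower and no call at the gene level (log2 -0.06; adjusted p = 0.276). Its lower set included exon PSR0X011786.hg.1 at -1.49, -1.57 and -1.49 with shRNA1, against -0.07, -0.05 and 0.06 in control, and its higher set JUC0X005790.hg.1 at -0.38, -0.25 and -0.18 with shRNA1, against -1.25, -1.22 and -1.22 in control. All 4 lower calls held in every leave-one-out fit. Of the 7 higher ones, PSR0X011793.hg.1 lost its call without control replicate 2, PSR0X011798.hg.1 without any 1 of the 6 arrays, and JUC0X005796.hg.1 without any of them but shRNA1 replicate 3. EPB41 followed with 9, RBFOX2 with 8, HYCC1 with 6, and DST and EPB41L2 with 5 each.

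Known RBFOX splicing targets were frequent among these genes. Of 62 measured, 32 held a called probe set (51.6%, against 2.24% of all genes), and 31 of 61 without RBFOX2 itself (50.8%). A gene with more probe sets tested has more chances of a call, so shares of genes depend on this too. In the 62 targets 85 of 3915 probe sets were called, beside 540 of 417377 (0.129%) over all genes. The count of 32 was 21 without shRNA1 replicate 3 and 22 to 27 without another array. The list was drawn up with earlier results of these data known, so its share is a description. In the 31 targets 59 probe sets were lower and 18 higher, and 18 targets had only lower ones, 4 only higher ones and 9 both. Targets with higher probe sets only included CLIP1, which binds growing microtubule ends (0.93 and 0.97), and the kinase MAP3K7 (0.76 at most). KIF1B, a kinesin, had 4 lower ones (-1.11 at most) while its gene value rose by 0.30. These 3 were chosen after their values were seen. Among the 30 targets without a called probe set were FGFR2, INSR, MBNL1, MBNL2, QKI and MEF2C.

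By role, 15 of 47 actin regulators held a called probe set (31.9%), 13 of 42 membrane traffic and Golgi genes (31.0%) and 7 of 33 microtubule and motor genes (21.2%), beside the 2.24% over all genes. Of the probe sets tested in these lists 41 of 3008, 40 of 2142 and 20 of 2187 were called, beside 0.129% over all genes. These lists share members with the target list, such as EPB41, DST, ENAH, GOLIM4, CLSTN1, PICALM, NDEL1 and SPAG9. At the gene level the medians of these lists were 0.00, -0.03 and 0.04, with 3, 3 and 6 rises and 4, 3 and 2 falls, beside 10.1% of all genes called. Those gene calls that held in every leave-one-out fit were of ADD3 and EPB41L5 among actin regulators, GOLIM4, CLSTN1, APBB2 and GOLGA2 in membrane traffic, and KIF1B and KIF1C among motors. In the stress response and the hypoxia and glycolysis lists 13 of 942 and 13 of 1423 probe sets were called. A called probe set was held by 7 of 34 stress response genes and 8 of 38 genes of hypoxia and glycolysis. Those counts were 3 in both lists without shRNA1 replicate 2 and 4 in both without control replicate 1, and the first was also 4 without shRNA1 replicate 3 or control replicate 3, and the second 5 without shRNA1 replicate 3.

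Genes with changed probe sets and genes with changed levels overlapped in part. Of the 356 genes with a called probe set 132 were also called at the gene level (37.1%, beside 10.1% of all genes), 97 higher and 35 lower, while 224 genes with 320 called probe sets were not. A gene value contains its own probe sets, and for some genes this made the call. With called probe sets left out of the gene value, an alternative chosen after seeing the data, 105 of the 356 were called, 99 of them in both versions. ATP5F1C, called lower at -0.14, then stood at -0.01 (adjusted p = 0.941), ENAH at 0.01 against -0.13 with all probe sets, and NDEL1 at 0.02 against -0.14. GOLIM4 stood at -0.10 (adjusted p = 0.142), CLSTN1 at -0.10 (adjusted p = 0.0594), APBB2 at -0.10 (adjusted p = 0.0571) and SEPTIN6 at 0.08 (adjusted p = 0.0976), none of them called. HYCC1 fell by 0.20 in place of 0.46 and kept its call (adjusted p = 0.0125). RBFOX2 fell by 1.19, and FKBP14 by 0.61 in place of 0.36.

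The direct difference between shRNA1 and the mean of shRNA2 and shRNA3 contains no control array. It was called for 405 genes (2.43%), 265 higher and 140 lower with shRNA1. Of the 405, 116 also differed from control, beside 10.1% of all genes. Among the 116, 62 were higher and 47 lower in both comparisons, and the rest went in opposite directions. RBFOX2 was lower by 0.44 (SE 0.03; adjusted p = 2.23e-06) than with the other hairpins. The count was 98, 81 and 105 when shRNA1 replicates 1, 2 or 3 were dropped. Dropping shRNA2 replicates 1, 2 or 3 gave 629, 268 and 1950, the last with the balance of directions turned round (659 higher and 1291 lower with shRNA1), and dropping shRNA3 replicates 1 or 3 gave 187 and 208. The gene values of INHBE and RWDD4 differed from control with shRNA1 and stood near control with the others. That of INHBE rests on 5 probe sets, and its shRNA1 change was 0.31 without those called for splicing. Its junction JUC12003657.hg.1 changed by 1.57, 0.61 and 0.19 with shRNA1, shRNA2 and shRNA3 (limma adjusted p = 0.078 for shRNA2). INHBE, a subunit of activin E induced under stress of the endoplasmic reticulum, was at 7.25, 7.30 and 7.24 with shRNA1, against means of 6.81 with shRNA2, 6.79 with shRNA3 and 6.78 in control (difference 0.46, SE 0.06). RWDD4 was at 7.92, 8.15 and 8.11 with shRNA1, against means of 8.55 with shRNA2, 8.53 with shRNA3 and 8.53 in control (difference -0.48, SE 0.05). TMEM45A was at 7.26, 7.36 and 7.32 with shRNA1, against means of 7.71 with shRNA2, 7.83 with shRNA3 and 7.68 in control (difference -0.45, SE 0.04), and with shRNA3 it was called higher than in control (0.14; adjusted p = 0.0278). CEMIP2 was lower by 0.51 and SYT11 higher by 0.48 than with the other hairpins.

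For splicing the difference was called for 34 probe sets (0.00815%) in 25 genes, 24 lower and 10 higher with shRNA1. Of the 34, 28 were also called against control, 22 lower and 6 higher in both. NDEL1 junction JUC17001145.hg.1 changed by -2.19 with shRNA1, -0.77 with shRNA2 and -1.46 with shRNA3 relative to control, and the direct difference was -1.07 (SE 0.05; adjusted p = 3.46e-05). EPB41L2 changed by -3.49, -1.23 and -3.16 with the hairpins in that order, a direct difference of -1.30 (SE 0.10; adjusted p = 0.0013), and EPB41 by -2.28, -0.59 and -1.91, a direct difference of -1.03 (SE 0.09; adjusted p = 0.00473). These 3 calls held whichever of the 9 hairpin arrays was left out. Dropping shRNA1 replicates 1, 2 or 3 gave 15, 13 and 7 in place of 34. Dropping shRNA2 replicate 2 gave 13, and dropping shRNA3 replicates 2 or 3 gave 21 and 17. The 3 hairpins share their control arrays, so their changes are set side by side here and not correlated.

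**Figure D5:**
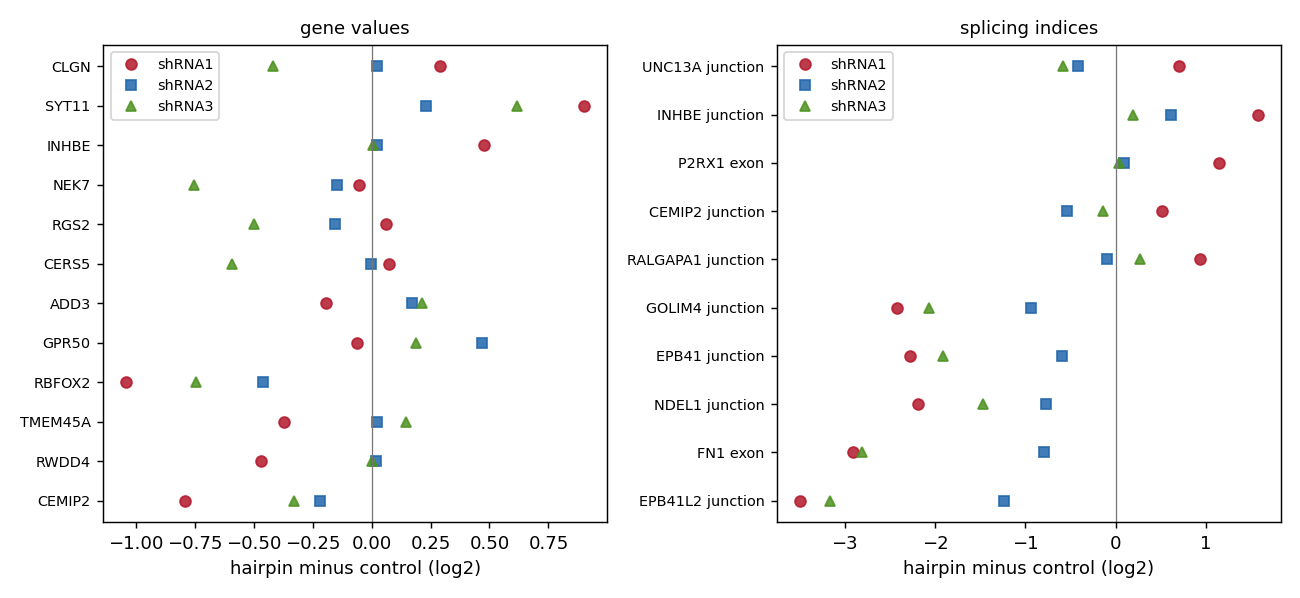
Change against control (x axis, log2) with each hairpin for the 12 genes (left) and 10 probe sets (right) with the largest called differences between shRNA1 and the mean of the other 2 hairpins. Circles are shRNA1, squares shRNA2 and triangles shRNA3. For the 5 lowest probe sets shRNA1 lies farthest to the left with shRNA3 near it or between. They were chosen for a low value of shRNA1 against the other hairpins, so the place of shRNA1 follows from the choice. The gene values of INHBE and RWDD4 lie near 0 with shRNA2 and shRNA3 and away from it with shRNA1.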

How the data were processed

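RNA of 12 samples of 293T cells was labelled with the Ambion WT Expression Kit and hybridised to Affymetrix arrays, per the labels' protocols. The deposited values are on a log2 scale and come from RMA in Affymetrix Expression Console, per the submitters' processing notes. Versions, settings and genome build: not given in the sources used here. RMA includes quantile normalization, so a shift of all RNA together would not be seen.

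Control probe sets (1530 of 914585) were left out. Genes were built from the 672085 probe sets with 1 gene symbol in the platform annotation (39483 had several and 201487 none), 2474 of 22085 symbols being updated through RefSeq. Probe sets were kept when their average over 12 arrays passed the 40th percentile, log2 6.53 (547833 kept). Gene values needed 3 kept probe sets and splicing indices 4, and 18138 identical copies within a gene were counted once.

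Tests were limma 3.58.1 fits (lmFit, eBayes; two-sided; R 4.3.3) of all 12 arrays in 4 groups, with 8 residual degrees of freedom and Benjamini-Hochberg adjustment over all features. Calls needed an adjusted p under 0.05, and for splicing indices also 1.5-fold. Same-numbered shRNA1 and control arrays did not deviate together (r of -0.23, 0.00 and -0.02 across genes), so no block was used.

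Named genes were the RBFOX genes, the 12 largest rises and falls, up to 4 called members per list, the 15 highest and lowest splicing probe sets, the largest of known targets, the widest gaps within a gene, the 6 genes with most calls and the largest differences from the other hairpins. List values outside this rule, such as those of ATF4, P4HA1, VEGFA, ASNS, SLC7A11, CHAC1, ENAH, NDEL1 and SEPTIN6, were chosen after they were seen. Members and lists were chosen with earlier results of these data known. On simulated data, 80 of 100 genes changed by log2 0.25 and 97 of 100 changed by 0.5 were recovered among 16648 genes with 7 false calls, and 89 and 100 of 100 splicing indices changed by 1 and 2 among 417377 with 4 false calls. The simulated noise was independent between features and held no deviation shared across an array. The false calls there therefore do not give the error rate of the real data. Alternatives varied the filter, normalization, gene value, index, model and arrays.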

Additional observations from a re-analysis of the deposited data

Results flagged for a closer look

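Each of these was tested directly as shRNA1 minus the mean of shRNA2 and shRNA3 in the limma fit, and the difference between hairpins was past the threshold. At the gene level the differences were -0.44 for RBFOX2, 0.48 for SYT11, -0.51 for CEMIP2 and -0.48 for RWDD4, and with the 3 hairpins in order (shRNA1, shRNA2, shRNA3) the changes against control were -1.04, -0.46 and -0.74 for RBFOX2, 0.90, 0.23 and 0.62 for SYT11, -0.79, -0.22 and -0.33 for CEMIP2 and -0.47, 0.02 and 0.00 for RWDD4. CLGN, a chaperone of the endoplasmic reticulum, differed by 0.49 (changes of 0.29, 0.02 and -0.42), INHBE by 0.46 (0.48, 0.02 and 0.01) and TMEM45A by -0.45 (-0.37, 0.02 and 0.14). ADD3 differed by -0.39, at -0.19 with shRNA1 and 0.17 and 0.21 with the others.

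For 4 genes shRNA1 was not called against control and the difference came with another hairpin. NEK7 differed by 0.39 (changes of -0.05, -0.14 and -0.75), RGS2 by 0.39 (0.06, -0.16 and -0.50), CERS5 by 0.37 (0.07, 0.00 and -0.59) and GPR50 by -0.39 (-0.06, 0.47 and 0.19). RGS2 lost its call without shRNA1 replicate 2 or 3 (largest adjusted p = 0.0508), and the other 11 genes kept theirs whichever of the 9 hairpin arrays was left out.

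Among splicing indices, differences that held in all 9 leave-one-out fits were -1.07 for NDEL1 junction JUC17001145.hg.1, -1.30 for EPB41L2 junction JUC06013065.hg.1 and -1.03 for EPB41 junction JUC01003161.hg.1. The GOLIM4 junction JUC03017465.hg.1 differed by -0.92 (call lost without shRNA1 replicate 3) and the FN1 exon PSR02044167.hg.1 by -1.11 (lost without any 1 shRNA1 array). Higher with shRNA1 were junctions of UNC13A (1.19), INHBE (1.17), CEMIP2 (0.85) and RALGAPA1 (0.84) and an exon of P2RX1 (1.08). Each of these 5 lost its call in at least 5 of the 9 fits, with shRNA1 replicate 1 among the arrays for all 5, and the largest adjusted p over those fits was 0.204 for INHBE, 0.235 for UNC13A, 0.193 for P2RX1, 0.144 for CEMIP2 and 0.235 for RALGAPA1. Against control the UNC13A and CEMIP2 junctions were not called (limma adjusted p = 0.111 and 0.0724). The signal of the CEMIP2 junction itself was lower with shRNA1, at 6.67 against 6.95 in control.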

How the results depend on the processing

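Leaving out 1 array at a time gave 493 to 1214 genes called against control (1675 with all arrays), 289 to 384 splicing indices (540), 1548 to 4285 single probe sets (8505), 81 to 1950 genes that differed from the other hairpins (405) and 7 to 27 such indices (34), and RBFOX2 at -1.06 to -1.02. Other settings left RBFOX2 between -0.87 and -1.27. The gene count was 643 with the median of probe sets as gene value (78 against the other hairpins), and 1171 to 2378 under the other settings. The splicing count was 351 with a 60th percentile filter, 160 at 2-fold (8 against the other hairpins) and 1375 with no smallest difference. Differences from the other hairpins were 240 genes and 17 indices with only those groups fitted, and 238 and 10 with no dim filter. Single probe sets called were 16518 with an intensity trend and 2010 with no dim filter. With the replicate number as a block there were 1515 genes, 414 indices and 5713 probe sets against control, 301 genes and 18 indices against the other hairpins, and RBFOX2 had an adjusted p of 1.93e-08. The numbers do not pair these samples. There were 1516 values of 137 named genes and probe sets under 15 alternatives other than leaving out arrays. Of these 1424 stayed called or stayed uncalled, 81 lost their call and 10 gained one. A change of sign was counted only where a value was called. The median of probe sets as gene value gave 33 of the 81 losses. Leaving out single shRNA1 or control arrays, not part of the 1516, lost 13 to 27 calls of the 95 named genes and none of the 42 named probe sets. RIGI turned to -0.064 with the 60th percentile filter (adjusted p = 0.545). The cause of these shifts was not tested. Falls below log2 6.53 are limited by the signal over background.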

Other observations

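Probe sets without a gene symbol entered the counts of single probe sets and no gene value or splicing index. Of 74434 of them 944 were called against control (1.27%), 642 higher and 302 lower with shRNA1, beside 1.80% of probe sets with a symbol. With genes split by mean level into 4 equal sets, 6.2%, 9.49%, 13.5% and 11.1% were called, in order from the dimmest set to the brightest.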
